A study of Rattus norvegicus with 36 samples.

Results

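In rat lung slices treated with TGFb, 135 genes stood at least 2-fold above untreated slices and lower again when Pirf or Sora was given with the TGFb. They were chosen by measured values, from 14984 genes in the deposited table of log2 CPM. Its values are logs of counts scaled for library size, in a way that no source used here gives in full. In that table the mean with TGFb alone had to exceed the untreated mean at 72 by 1 or more on the log2 scale. The mean with TGFb and Pirf, and that with TGFb and Sora, each had to lie at least 0.5 below TGFb alone, and the highest of all 6 group means had to reach 1. That level was reached only at time 0 by 3 of the genes and only with Nint by 1, while 131 reached it in a group used for the differences. Of 367 genes that met the level and TGFb conditions, 135 were low enough with both drugs, 45 with Pirf only, 67 with Sora only and 120 with neither. The samples were precision-cut lung slices, thin sections of living rat lung kept in culture. The 36 libraries formed 6 groups of 6. Untreated slices were sampled at times labelled 0 and 72. The other groups, all sampled at 72, had TGFb alone or TGFb plus 1 of Pirf, Nint and Sora. Every drug group also received TGFb, so no group shows a drug alone. The sources used here do not give rat strain or age, the time unit or any dose. No label ties replicates to different animals, so each p-value reflects library-to-library spread that may be only technical.

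TGFb is a secreted growth factor that binds a pair of receptor kinases on the cell surface. The activated receptors phosphorylate SMAD proteins, which enter the nucleus and switch on genes of matrix production and contraction. In lung, long exposure turns fibroblasts into myofibroblasts, the cells that lay down scar in pulmonary fibrosis. Pirf, Nint and Sora stand for pirfenidone, nintedanib and sorafenib as far as knowledge of the study goes. Pirfenidone is an oral anti-fibrotic whose direct target is not settled. Nintedanib blocks the receptor kinases for PDGF, FGF and VEGF, and sorafenib blocks RAF kinases together with VEGF and PDGF receptors.

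Total counts per library ran from 15886958 to 32933012. All 135 genes had enough counts to be tested among 15644 genes. The files list genes by Ensembl ID, and no table used here pairs these IDs with names, so the genes are described by ID and roles cannot be assigned. For the same reason the lung identity of the slices and the cell types in them could not be checked against markers. The scaling factors, which correct for differences in RNA composition, were 1.06 to 1.08 in the Pirf libraries and 0.894 to 1.02 with TGFb alone. They averaged 1.03 ± 0.0432 with Sora and 0.966 ± 0.0275 with Nint (SD, n = 6). Without these factors 113 of the 135 genes met the choosing conditions, and their part in the values below was otherwise tested only by repeating each comparison without them.

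The level of the whole group separated TGFb alone from each other group library by library, but did not separate Pirf from Sora. The median of the 135 genes lay between 4.46 and 4.71 log2 CPM in the TGFb-alone libraries, and between 2.39 and 2.99 in untreated slices at 72. It was 3.08 to 3.63 with Pirf and 3.52 to 3.80 with Sora, so these 2 ranges overlapped. At time 0 it was 2.09 to 3.25, which overlapped untreated slices at 72 and Pirf. No library with Pirf or Sora reached the lowest TGFb-alone library, and none came down to the highest untreated library at 72. These 4 groups chose the genes, so their order is a description. The Nint libraries, which entered the choice only through the level condition, stood between 4.07 and 4.4, below all of TGFb alone and above all Sora libraries. The TGFb-alone libraries did enter the choice, which favours lower values with Nint, so this place is a description too. In slices of mixed cells, fewer cells of a type and less RNA per cell cannot be told apart.

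**Figure D1:**
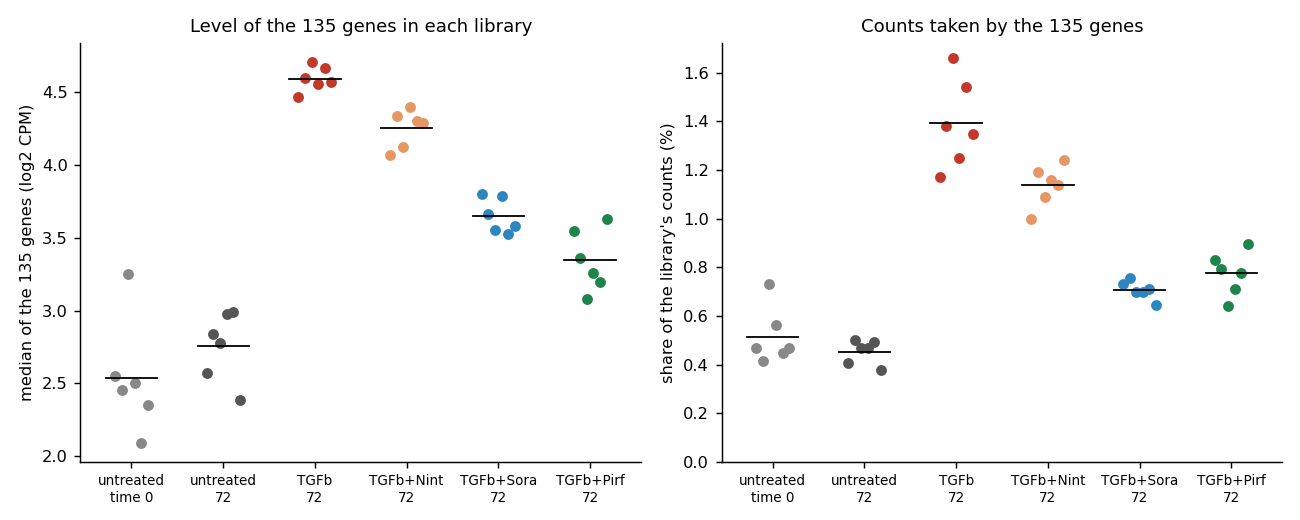
Left, median log2 CPM of the 135 genes in each library; right, the percentage of the library's counts that these genes took. Points are single libraries, lines are group means of 6, and the vertical axis of the left panel does not start at 0. TGFb-alone libraries lie at 4.46 or more on the left, Nint libraries just beneath them, and Sora and Pirf libraries between 3.08 and 3.80.

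The same genes took 1.39% ± 0.182 of all counts with TGFb alone (SD, n = 6) and 0.452% ± 0.0488 in untreated slices at 72. Their share was 0.775% ± 0.0899 with Pirf, 0.707% ± 0.0383 with Sora and 1.14% ± 0.0836 with Nint. At time 0 it was 0.515% ± 0.117, where replicate 3 held 0.732% and the other 5 held 0.416% to 0.561%. With TGFb alone the single most counted gene supplied 11.8% of the group's counts and the top 10 supplied 54.3%. This share is therefore mostly a statement about a few abundant genes, while the median over genes is not.

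The difference between TGFb alone and untreated slices ranged from 1.01 to 4.78 on the log2 scale, with a median of 1.66. The differences from TGFb alone ran from -4.53 to -0.53 with Pirf (median -1.20) and from -3.87 to -0.51 with Sora (median -1.0). Over all 14984 genes the medians of these differences were 0.00, 0.02 and 0.02. All 6 TGFb-alone libraries lay above all 6 untreated ones for 111 of the 135 genes, where 6.6% of all genes in the table did so. All 6 Pirf libraries lay below TGFb alone for 98 genes (16.1% of all genes) and all 6 Sora libraries for 75 (2.74% of all genes). The choice of the genes favours such separation, and nothing is read from these counts. For 66 genes all 3 separations held.

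The thresholds cut through a continuous range. The genes nearest to the TGFb threshold were 1.005, 1.021 and 1.041 above untreated on the inside, and 0.993, 0.985 and 0.959 on the outside. For Pirf the nearest values were -0.528, -0.534 and -0.538 inside and -0.496, -0.476 and -0.46 outside. For Sora they were -0.508, -0.551 and -0.564 inside and -0.499, -0.484 and -0.47 outside.

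**Figure D2:**
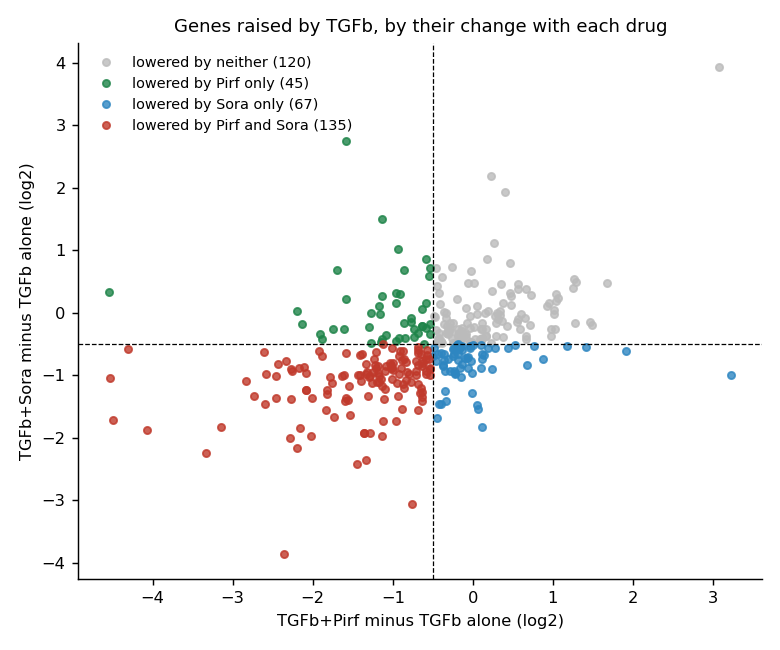
Each of 367 genes raised by TGFb is a point; the horizontal axis gives the log2 difference between TGFb with Pirf and TGFb alone, the vertical axis the same for Sora, and dashed lines mark the threshold of -0.5. Both axes use the same TGFb-alone libraries, so the points are not independent of each other in direction; the 135 genes fill the lower left.

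ENSRNOG00000011824 had the largest TGFb difference, 4.78 on the log2 scale. Levels here are CPM, obtained as 2 to the power of the deposited value and given as lowest, median and highest of 6 libraries. Untreated slices at 72 held 0.827, 1.56 and 2.62 CPM of it, and TGFb-alone slices 32.2, 40.3 and 111. It stood at 6.67, 8.02 and 10.7 CPM with Pirf, at 12.6, 18.6 and 24.5 with Sora, and at 22.7, 43.7 and 62.9 with Nint. Pirf and Sora libraries thus lay between the untreated and TGFb-alone ranges without touching either, and the Nint range overlapped that of TGFb alone. The high TGFb-alone value of 111 belonged to replicate 3 by itself.

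ENSRNOG00000013074 came next, with a difference of 4.34. It went from 0.0648, 0.471 and 1.04 CPM in untreated slices to 6.93, 8.02 and 9.40 with TGFb. With Pirf it was at 2.76, 3.43 and 3.59 CPM, and with Sora at 1.36, 2.29 and 2.87. With Nint it held 3.93, 5.46 and 6.71 CPM, so each of the 3 drug groups lay wholly below TGFb alone. For Nint the gap was narrow, and the edgeR test described below did not call the difference (log2 fold change -0.63, SE 0.44, adjusted p = 0.646).

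The most abundant gene was ENSRNOG00000058645. It held 686, 789 and 861 CPM in untreated slices at 72 and 1520, 1620 and 1930 with TGFb. Pirf libraries held 700, 798 and 888 CPM and Sora libraries 774, 920 and 1100, so both drug ranges overlapped the untreated one. Nint libraries held 1610, 1750 and 1820 CPM, within the TGFb-alone range. At time 0 it varied from 321 to 2110 CPM. ENSRNOG00000003357, the next in level, held 222, 273 and 395 CPM untreated and 1140, 1440 and 2640 with TGFb. It stood at 863, 1010 and 1240 CPM with Pirf and at 360, 658 and 779 with Sora, so the highest Pirf library overlapped TGFb alone and the Sora libraries did not.

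Summed over both drugs, the lowest values belonged to ENSRNOG00000025184 and ENSRNOG00000030374, which differed in kind. ENSRNOG00000025184 had counts in every library. It held 0.149, 0.327 and 0.426 CPM untreated, 3.36, 4.40 and 6.63 with TGFb, 0.402, 0.892 and 1.58 with Pirf, and 0.125, 0.362 and 0.558 with Sora. Sora libraries covered the untreated range. ENSRNOG00000030374 instead switched between a high and a near-zero value inside groups. With Pirf it held 0.0103, 6.21 and 14.1 CPM, where 0.0103 is the value of a library without counts. Of the 6 Pirf libraries 3 were at that value and the other 3 stood near the highest. Untreated slices at 72 held 0.0103, 13.8 and 16.6 CPM and TGFb-alone slices 1.02, 13.2 and 15.4, so their medians hardly differed. With Sora it was under 0.5 counts in 1 library, and with Nint in 2. RSEM, which made the counts, can move reads between near-identical genes, and its part here was not tested.

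Such switching was uncommon among the 135 genes. In 19 of them the SD over 6 libraries passed 1 on the log2 scale in at least 1 of the 4 groups that chose the genes, and 9 of those 19 had a library under 0.5 counts there. The median SD over genes was 0.35 with TGFb alone and in untreated slices at 72, 0.27 with Pirf, 0.39 with Sora and 0.30 with Nint. At time 0 it was 0.72. Taking group medians in place of means kept 116 of the 135 genes and gave 130 in all.

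**Figure D3:**
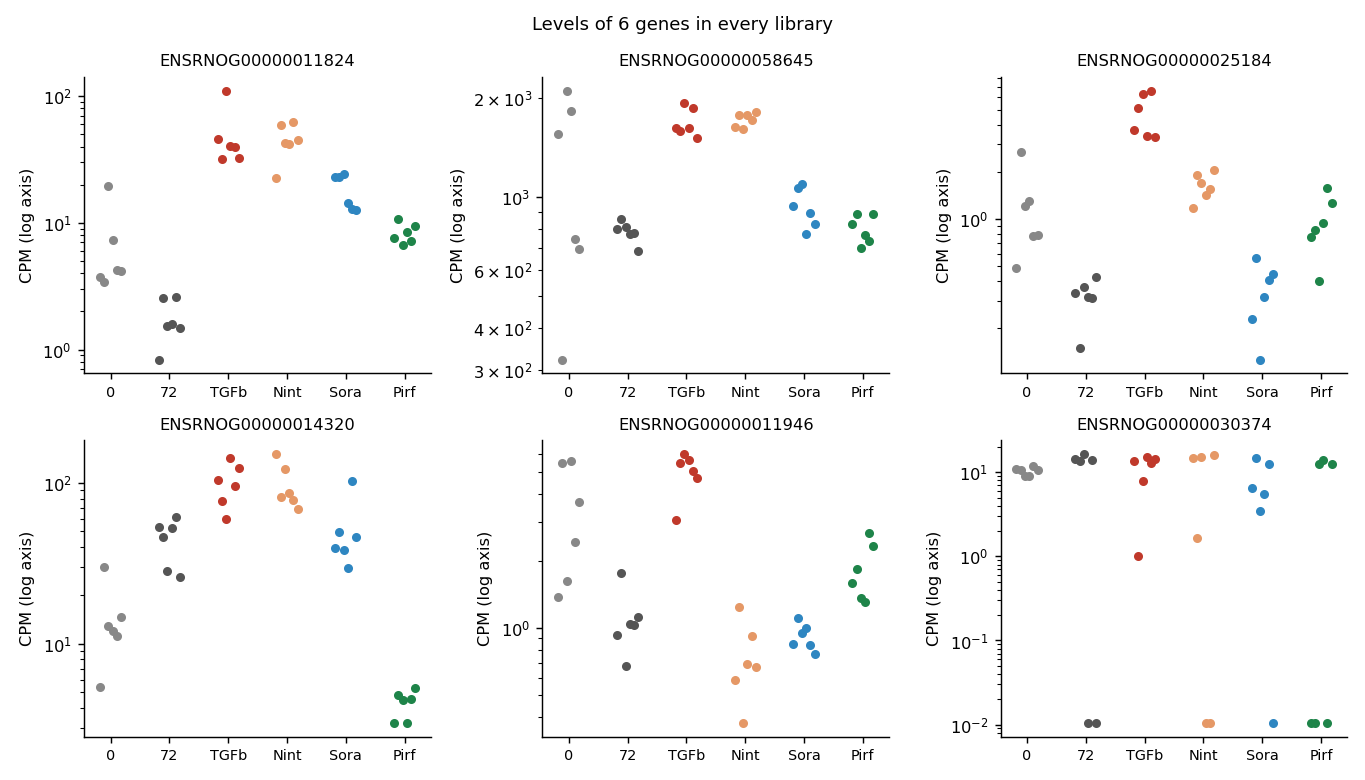
CPM of 6 of the genes in every library, on log axes with different ranges; columns are untreated slices at 0 and 72 and slices at 72 with TGFb alone or with TGFb and Nint, Sora or Pirf. In the panel of ENSRNOG00000030374 libraries of 1 group stand either above 1 CPM or at 0.0103 CPM, which no other panel shows.

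How far the drugs brought the genes towards untreated slices was described next. With Pirf the group mean was below the untreated mean for 33 genes, less than 1 above it on the log2 scale for 63, and 1 or more above it for 39. With Sora the numbers were 11, 79 and 45, and with Nint 3, 30 and 102. Pirf and Sora both lay below untreated for 6 genes. The median distance above untreated slices was 0.45 with Pirf, 0.65 with Sora and 1.36 with Nint, against 1.66 with TGFb alone. Expressed per gene, the median share of the TGFb difference that was absent with the drug came to 67.6% (Pirf), 59.0% (Sora) and 19.7% (Nint). For Pirf and Sora these shares had to be positive by the choice of genes, and they have no test.

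No single order of group means at 72 held for most genes. The commonest, TGFb, Nint, Sora, Pirf and untreated from high to low, held for 46 genes (34.1%), and the same with Pirf above Sora for 37 (27.4%). In 27 genes the Pirf mean lay below untreated and the Sora mean above it. The Nint mean exceeded TGFb alone in 13 genes, and in 10 genes Nint lay further below TGFb alone than Pirf did.

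**Figure D4:**
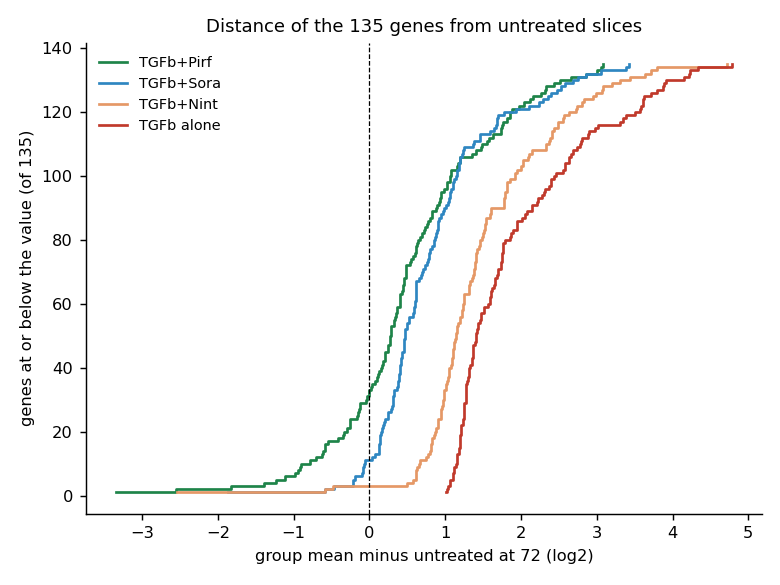
Number of the 135 genes (vertical axis) whose group mean minus the untreated mean at 72 (horizontal axis, log2) is at or below each value, with 1 line per group. The Pirf and Sora lines cross 0 at 33 and 11 genes, and the Nint line follows TGFb alone at a shorter distance.

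Sora and Pirf were compared directly with edgeR's quasi-likelihood test, Benjamini-Hochberg adjusted over all 15644 genes, calling genes at an adjusted p under 0.05. Both drug groups had entered the choice with the same threshold. Requiring both to be low also limits their difference: of the genes lowered by Pirf only, 31 of 45 were higher with Sora, and of those lowered by Sora only, 36 of 67 were lower. The counts for the 135 genes are therefore shaped by the choice and are given as a description. Of the 135 genes, 28 (20.7%) were higher with Sora, where 21.8% of all tested genes were called higher. Another 11 (8.15%) were lower with Sora, where 20.3% of all genes were, and 96 were not called. The median log2 difference was 0.16, against -0.01 over all genes, and 85 of 135 estimates lay above 0. The number lower with Sora was 6 without Pirf replicate 1 or Pirf replicate 6, 7 without Sora replicate 5 or without a filter on low counts, and 18 in a fit of these 12 libraries alone.

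The genes named from this comparison are its extremes, among genes chosen on the same Pirf and Sora libraries. Their estimates and p-values are therefore given as a description. Among the genes called, ENSRNOG00000014320 had the highest edgeR estimate of Sora over Pirf. It held 25.9, 49.1 and 61.7 CPM in untreated slices at 72 and 60.1, 99.9 and 143 with TGFb. With Sora it stood at 29.5, 42.7 and 103 CPM, but at 3.20, 4.51 and 5.30 with Pirf, below every untreated library at 72 and below the time-0 range of 5.40 to 30.0. The Sora level exceeded the Pirf level by 3.58 on the log2 scale (SE 0.34, adjusted p = 1.18e-09). With Nint it held 68.8, 84.0 and 152 CPM, overlapping the range of TGFb alone, with its highest library above that range.

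ENSRNOG00000004854 had a like pattern with a stronger TGFb difference. Its levels were 7.84, 14.8 and 26.2 CPM untreated, 76.7, 89.9 and 120 with TGFb, 21.4, 23.3 and 41.0 with Sora and 4.10, 5.91 and 7.42 with Pirf. Sora exceeded Pirf by 2.19 on the log2 scale (SE 0.34, adjusted p = 5.14e-06), and again all Pirf libraries lay below all untreated ones.

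The lowest edgeR estimate among the genes called belonged to ENSRNOG00000025184, at -1.52 on the log2 scale (SE 0.36, adjusted p = 0.000955). ENSRNOG00000011946 stood at -1.02 (SE 0.30, adjusted p = 0.00596). It held 1.31, 1.72 and 2.67 CPM with Pirf and 0.763, 0.903 and 1.11 with Sora, against 3.06, 5.26 and 6.03 with TGFb alone and 0.679, 1.04 and 1.77 untreated. Sora libraries of this gene lay inside the untreated range, and Pirf libraries overlapped its upper end.

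Genes called higher with Sora have low Pirf values by that very call, so their place against untreated slices is a description. Among the 28 that were higher with Sora, the Pirf mean was below untreated slices in 20 and the Sora mean in 2. Among the 11 that were lower with Sora, the Pirf mean was below untreated slices in 0 and the Sora mean in 2. The latter 11 were also more abundant, with a median level of 7.40 log2 CPM with TGFb alone, against 4.56 in the 28 and 4.52 in the genes not called.

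No condition was set on the difference between Nint and TGFb alone, and Nint means entered only the level condition, which 1 gene met through Nint alone. The TGFb-alone libraries did enter the choice, which favours lower values with Nint. By the same edgeR test 12 of the 135 genes (8.89%) fell with Nint, where 2.21% of all tested genes did. None of the 135 rose, where 0.882% of all genes did. At an unadjusted p under 0.05, 42 fell and 0 rose, and DESeq2 called 16 lower and 0 higher. The median log2 fold change was -0.36, against -0.02 over all genes, with 122 of 135 estimates below 0. The count of 12 rested on single libraries: it was 4 without TGFb-alone replicate 3, 5 without Nint replicate 1, and 7 without Nint replicate 5 or TGFb-alone replicate 5. In a fit of these 12 libraries alone it was 21, of which 10 were among the 12.

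The other genes raised by TGFb give a scale, since the same TGFb-alone libraries helped to choose them. Among the 120 that neither Pirf nor Sora lowered, 1 fell and 1 rose with Nint, and the median log2 fold change was -0.17. Among the 67 lowered by Sora only, 4 fell, with a median of -0.36. Among the 45 lowered by Pirf only, 1 fell, with a median of 0.01. The difference between these sets was not tested.

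ENSRNOG00000011946 had the strongest fall with Nint, to 0.375, 0.681 and 1.24 CPM from 3.06, 5.26 and 6.03 with TGFb alone (log2 fold change -2.76, SE 0.31, adjusted p = 4.99e-07). Every Nint library lay below every TGFb-alone library. It was the one gene of the 12 that was not also called above untreated slices with Nint (log2 fold change -0.55, SE 0.31, adjusted p = 0.201). ENSRNOG00000029911 fell from 2.56, 6.48 and 16.1 CPM to 0.511, 1.59 and 4.27 (log2 fold change -2.17, SE 0.53, adjusted p = 0.0158), with overlapping ranges. Its adjusted p passed 0.05 without TGFb-alone replicate 3 (0.0752) and in the fit of 12 libraries (0.0624). In the other 10 genes the estimates lay between -1.56 and -0.40.

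Against untreated slices at 72, 114 of the 135 genes (84.4%) were higher with TGFb and Nint, where 12.6% of all genes were. None were lower, where 13.9% of all genes were, and without Nint replicate 5 there was 1. At an unadjusted p under 0.05, 123 were higher and 0 lower, and DESeq2 called 118 higher and 0 lower. Over all genes 1969 were higher and 2168 lower, and 1240 and 2754 without scaling factors, while 110 of the 135 were higher without them. The genes were chosen to be low in the untreated libraries, which favours this result. The other genes raised by TGFb had like shares: 39 of 45 (86.7%) lowered by Pirf only, 56 of 67 (83.6%) lowered by Sora only and 98 of 120 (81.7%) lowered by neither. The median log2 fold change was 1.26. Of the 12 genes that fell with Nint, 11 were still above untreated slices.

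The change during culture was examined by comparing untreated slices at 72 with those at time 0. The untreated libraries at 72 entered the choice, which favours low values at 72. Time-0 means entered only the level condition, which 3 genes met through time 0 alone, and for these a high time-0 value was required. Of the 135 genes, 46 (34.1%) rose, where 38.0% of all genes did, and 33 (24.4%) fell, where 35.3% of all genes did. Without those 3 genes 46 rose and 30 fell. The share that rose was near that of all genes. The median log2 fold change was 0.13, against 0.02 over all genes. Of the 120 genes raised by TGFb but lowered by neither drug, 29 (24.2%) rose and 47 (39.2%) fell, with a median of -0.23. Of the 45 lowered by Pirf only, 19 (42.2%) rose and 14 (31.1%) fell, with a median of 0.31. Of the 67 lowered by Sora only, 22 (32.8%) rose and 21 (31.3%) fell, with a median of -0.07. The difference between these sets was not tested.

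ENSRNOG00000026594 was nearly absent at time 0, under 0.5 counts in 5 of 6 libraries and at 0.131 CPM in replicate 3. Untreated slices at 72 held 0.288, 0.403 and 0.522 CPM (adjusted p = 2.89e-08), with every library above every time-0 library. With TGFb it held 1.62, 2.33 and 3.18 CPM, whereas Pirf libraries held 0.182, 0.357 and 0.533 and Sora libraries 0.597, 1.01 and 1.29. Pirf libraries spanned the untreated range, and Sora libraries lay above it. ENSRNOG00000014025 rose from 0.0103, 0.0421 and 0.491 CPM at time 0 to 0.955, 1.65 and 2.30 at 72 (log2 fold change 3.92, SE 0.50, adjusted p = 1.53e-08). Of its time-0 libraries 3 held under 0.5 counts, and without time-0 replicate 3 the log2 fold change was 5.45.

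The lowest estimates in culture were those of ENSRNOG00000018790 and ENSRNOG00000047786. ENSRNOG00000018790 is among the 3 genes chosen through their time-0 level, so its values are a description. It held 5.20, 5.73 and 12.2 CPM at time 0 and 0.125, 0.270 and 0.610 in untreated slices at 72. With TGFb it held 0.376, 0.673 and 0.996 CPM, well short of the time-0 level. ENSRNOG00000047786 fell from 13.8, 25.6 and 41.4 CPM to 0.194, 1.46 and 1.73 (log2 fold change -4.46, SE 0.38, adjusted p = 1.58e-12) and stood at 1.11, 2.26 and 4.01 with TGFb. These genes met the TGFb condition at a small part of their time-0 level. For ENSRNOG00000047786 the TGFb difference of 1.29 leaned on untreated replicate 1 at 72. That library held 0.194 CPM, where the next lowest held 0.544.

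The genes divided by this test differ at time 0 by construction, and their levels are given as a description. Among the 46 that rose in culture, the median was 1.51 log2 CPM at time 0, 2.94 in untreated slices at 72 and 4.56 with TGFb. Among the 33 that fell, the medians were 3.92, 1.95 and 4.57, and TGFb alone was below time 0 in 12. Of these 33, the Pirf mean lay below time 0 in 26 and the Sora mean in 25. Over all 135 genes TGFb alone exceeded time 0 in 120. Replicate 3 stood high at time 0, with 113 of the 135 genes above their group mean. Without it, 59 rose in culture.

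**Figure D5:**
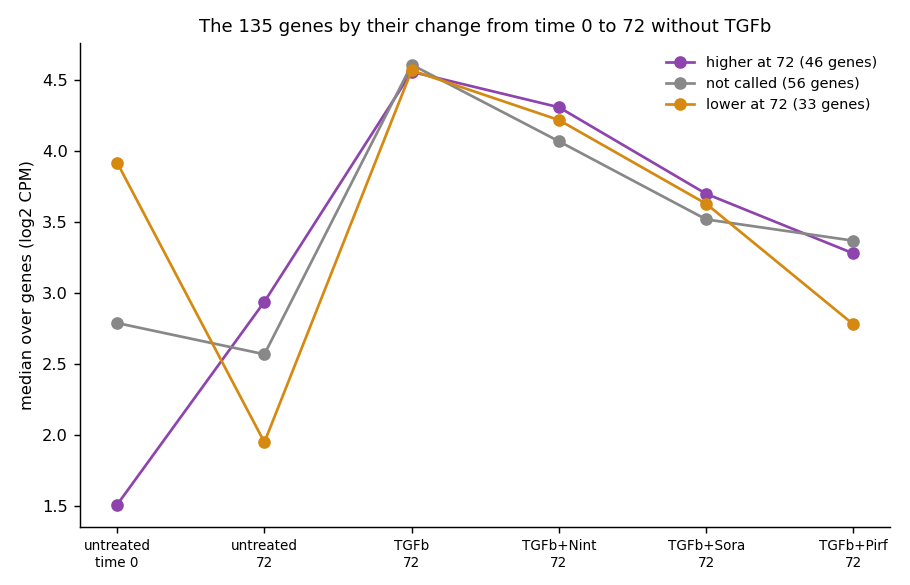
Median log2 CPM over genes in each group, for the 135 genes divided by the test of untreated slices at 72 against time 0 (46 higher, 33 lower, 56 not called); lines join the groups and do not show a time course. The classes start at 1.51, 3.92 and 2.79 log2 CPM at time 0 and stand at 4.56 to 4.61 with TGFb alone.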

How the data were processed

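RNA from 36 libraries of rat lung slices was sequenced after ribosomal RNA removal, per the labels' protocols. The authors deposited expected counts per gene, estimated with RSEM on Rnor_6.0 per the submitters' processing notes, and a table of log2 CPM values for 14984 genes. No source used here gives the scaling or prior count of the latter, the aligner or the annotation release. These 135 genes, and the lists, were chosen with earlier results of these data known. Groups and replicate numbers came from sample titles. Rounded counts went into edgeR 4.0.16 (R 4.3.3): filterByExpr, TMM factors, 1 quasi-likelihood fit of all 36 libraries without covariates, and Benjamini-Hochberg adjustment over 15644 genes. Standard errors were obtained from the log2 fold change and the F statistic, as the size of the former over the root of the latter. The fit was tested on simulated data. Alternatives were DESeq2 1.42.0, RLE or no scaling, no filter, 2-group fits, a replicate block and leaving out each library. Genes were named as the extremes of each measure, at most 2 IDs per direction. Of 15644 tested IDs 0 could be paired with a symbol, so 14 gene lists, 17 marker lists and promoter motifs fixed by name were not run, and no sequence is given.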

Additional observations from a re-analysis of the deposited data

Results flagged for a closer look

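In 96 groups of 6 libraries (14 named genes and 2 measures over the 135 genes), 8 held 1 library far from the other 5. Chance gives about 1 in 20 only for independent, normally spread values. The named genes are extremes measured in the same libraries, and some groups hold libraries without counts. The number is therefore a description. Values are log2 CPM, followed by that of the nearest other library. With TGFb alone, ENSRNOG00000011824 was at 6.79 in replicate 3 (5.51), ENSRNOG00000030374 at 0.03 in replicate 2 (2.99) and ENSRNOG00000011946 at 1.61 in replicate 1 (2.23). ENSRNOG00000025184 was at -2.75 in untreated replicate 2 at 72 (-1.69). With Sora, ENSRNOG00000030374 was at -6.6 in replicate 6 (1.80) and ENSRNOG00000004854 at 5.36 in replicate 5 (4.66). At time 0, ENSRNOG00000026594 was at -2.94 in replicate 3 (-6.6) and ENSRNOG00000018790 at 3.61 in replicate 1 (2.59).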

How the results depend on the processing

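The number of genes meeting the conditions was 53 with drug thresholds of -1 and 248 with any value below 0. It was 130 to 146 when each of the 24 libraries was left out, and 98 to 158 under the other planned settings. Leaving out single libraries kept 123 to 135 of the 135 genes, with 123 kept without TGFb-alone replicate 3. Leaving out single libraries gave 4 to 14 genes lower with Nint than TGFb alone and 0 higher, and 108 to 115 higher and 0 to 1 lower than untreated slices. It gave 22 to 27 genes higher and 6 to 11 lower with Sora than Pirf, and 44 to 59 that rose and 30 to 36 that fell in culture. In fits of the 2 groups alone 21 were lower with Nint and 18 lower with Sora than Pirf. Without the low-count filter 7 were lower with Sora. The cause of these shifts was not tested. Deviations of same-numbered libraries from their group means had correlations of -0.286 to 0.561. For Nint against TGFb alone 2 of 6 libraries matched their own number best, and for each other comparison 0 or 1 did. Such correlations cannot show whether a number marks a shared animal or batch. With the replicate block, 12 were lower with Nint, 113 above untreated, 26 higher and 11 lower with Sora, and 47 rose and 34 fell in culture. Keeping only the 116 genes with an SD of at most 1, an alternative chosen after seeing the data, gave 11 lower with Nint, 27 higher and 11 lower with Sora, and 42 that rose and 30 that fell in culture. The fold changes of the genes named for Nint against TGFb alone, Sora against Pirf and culture kept their direction in every setting run. Those of the other named genes were not followed across settings. Near-zero levels limit what can be said of the genes at or under 0.5 counts.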
